A study of Mus musculus with 6 samples.

Results

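Glutamate is the main excitatory transmitter of the cerebellar cortex, and 7 genes that clear it, reload it into vesicles or recycle it through glutamine are described here, out of 32286 genes in the count tables. The genes were taken by name, with no threshold on a measured value, as the rows of *Slc1a2*, *Slc1a3*, *Slc1a6*, *Slc17a6*, *Slc17a7*, *Glul* and *Slc38a3*, and all 7 were found in the tables of all 6 mice. Single nuclei RNA sequencing had been run on whole cerebella of 12 week old mice, 3 of the transgenic strain Pcp2-ATXN1[82Q] (SCA1) and 3 wild-type littermate controls, whose strain label is C57Bl6 (WT). In the SCA1 mice, a human *ATXN1* transgene whose CAG repeat is expanded is driven by the promoter of *Pcp2*, a gene of Purkinje cells (PC). The questions asked of the 7 genes were in which neurons and glia each is found and whether any differed between SCA1 and WT mice.

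Excitatory neurons fill their vesicles with glutamate through vesicular glutamate transporters, and the released glutamate is taken up by transporters of the Slc1 family on astroglia and, in the cerebellum, on PC. Inside astroglia, glutamine synthetase joins ammonia to glutamate, and the glutamine made can leave through Slc38 carriers and be turned back into glutamate in neurons. Bergmann glia (BG), whose processes wrap PC synapses in the molecular layer, and velate astrocytes (VA), which lie among granule neurons, are both astroglia of the cerebellar cortex.

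In the GRCm38 assembly with GENCODE annotation, *Slc1a2* (GLT-1, the astroglial glutamate transporter) lies at chr2:102658659-102790784 on the plus strand and *Slc1a3* (GLAST, the other astroglial transporter) at chr15:8634124-8710764 on the minus strand. *Slc1a6* (EAAT4, the transporter of PC) lies at chr10:78780496-78814765 on the plus strand. The vesicular transporters *Slc17a6* (VGLUT2) and *Slc17a7* (VGLUT1) both lie on the plus strand of chromosome 7, at chr7:51622006-51671119 and chr7:45163949-45176142. *Glul* (glutamine synthetase) lies at chr1:153899944-153909723 on the plus strand and *Slc38a3* (SNAT3, a glutamine carrier) at chr9:107650634-107669530 on the minus strand. Introns make up 55.8% of the *Slc17a7* gene and 93.7% of *Slc1a6*, with the others between these values, and reads in introns were counted, so levels were compared between cell types for 1 gene at a time and not between genes. The antisense gene *Gm13872* overlaps 440 exonic bases of *Slc1a2*.

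The tables held 45473 nuclei, each with 1 of 24 cell type labels that the authors had assigned with SingleR, and the 13 labels with at least 10 nuclei in every mouse were used, which left out 431 nuclei. The study's cell types also required agreement with the Seurat cluster, whereas the SingleR label alone was used here. Of 292 PC nuclei, 273 had the label most frequent in their cluster, as did 1126 of 1243 BG nuclei. Libraries held 3354 to 10897 nuclei and 18916647 to 98366627 unique molecular identifiers (UMIs), with medians of 2247 to 7253 UMIs per nucleus. The sparsest was WT mouse 2, in which 4784 of 6710 nuclei had under 3000 UMIs. SCA1 mouse 1 and WT mouse 1 formed a first sequencing batch, as inferred from library numbers, and were the deepest. Pairs of libraries shared 7 to 44 barcodes. Human *ATXN1* UMIs were found in 10 of 65, 10 of 52 and 11 of 29 PC nuclei of the SCA1 mice and in 0 of 146 PC nuclei of the WT mice. Pooled over the WT mice, this allows a share of up to 2.05% by counting error alone. For WT mice 1 to 3 singly, the upper 95% limits were 4.74%, 8.60% and 11.9%. Over the 13 labels, however, the gene also had 37, 17 and 15 UMIs in WT mice 1 to 3, against 56, 60 and 60 in the SCA1 mice, of which 12, 15 and 19 lay in PC. The source of the UMIs outside PC was not tested. BG and VA differed in their markers, with shared expression. *Gdf10*, a marker of BG, averaged 122 CPM in BG and 10.1 CPM in VA. *Aqp4*, a marker of VA, averaged 1151 CPM in VA and 222 CPM in BG. Summed over the 4 markers listed for each, BG markers averaged 956 CPM in BG and 318 CPM in VA. VA markers averaged 1752 CPM in VA and 471 CPM in BG. Markers were mixed for a label named for endothelial tip cells, here called Dcn.Nnat nuclei, in which the fibroblast genes *Dcn* and *Col1a1* averaged 374 and 174 CPM while of 3 endothelial genes *Cldn5* and *Pecam1* averaged 1.88 and 2.25 CPM and *Flt1* 94.9 CPM.

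Levels are given as CPM, the UMIs of a gene per 1000000 UMIs summed over the nuclei of 1 label in 1 mouse, with the mean ± SD over mice. As the labels had been assigned from the expression of the same nuclei, and some are named after these genes, the levels across labels are a description and were not tested.

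The 2 astroglial transporters had opposite orders in the astroglia. *Slc1a2* was highest in VA and *Slc1a3* in BG, whose deposited label, Astrocyte.Gja.Slc1a3, bears its name. In VA, *Slc1a2* was at 1531, 1377 and 2096 CPM in SCA1 mice 1 to 3 and at 1642, 1734 and 2098 CPM in WT mice 1 to 3. In BG it was at 1173, 881 and 1245 CPM in the SCA1 mice and at 1127, 1065 and 1043 CPM in the WT mice. The lowest VA value lay above the highest BG value, and within a mouse the VA level was 1.61 ± 0.239 times the BG level, with a range of 1.30 to 2.01 over 6 mice. Outside astroglia *Slc1a2* averaged 154 ± 79.1 CPM in oligodendrocytes (OL), 134 ± 75.7 CPM in granule neurons and 33.3 CPM in PC, its lowest label.

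*Slc1a3* was at 3077, 3045 and 3950 CPM in BG of the SCA1 mice and at 3459, 4179 and 4096 CPM in BG of the WT mice. In VA it was at 741, 699 and 756 CPM in the SCA1 mice and at 765, 730 and 821 CPM in the WT mice. BG, the label named after this gene, stood far above VA in every mouse. The BG level was 4.83 ± 0.596 times the VA level, with a range of 4.15 to 5.73. The third label in order, the Dcn.Nnat nuclei, averaged 560 ± 195 CPM and overlapped VA in single mice, and OL followed at 236 ± 55.1 CPM. In BG, 97.5% of 1243 nuclei had UMIs of both *Slc1a2* and *Slc1a3*, and in VA 92.9% of 1014 nuclei did, against 26.2% of granule neurons and 37.9% of OL, without thinning to equal depth. *Slc1a2* had 0.304 ± 0.0482 UMIs for each *Slc1a3* UMI in BG and 2.31 ± 0.311 in VA.

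**Figure D1:**
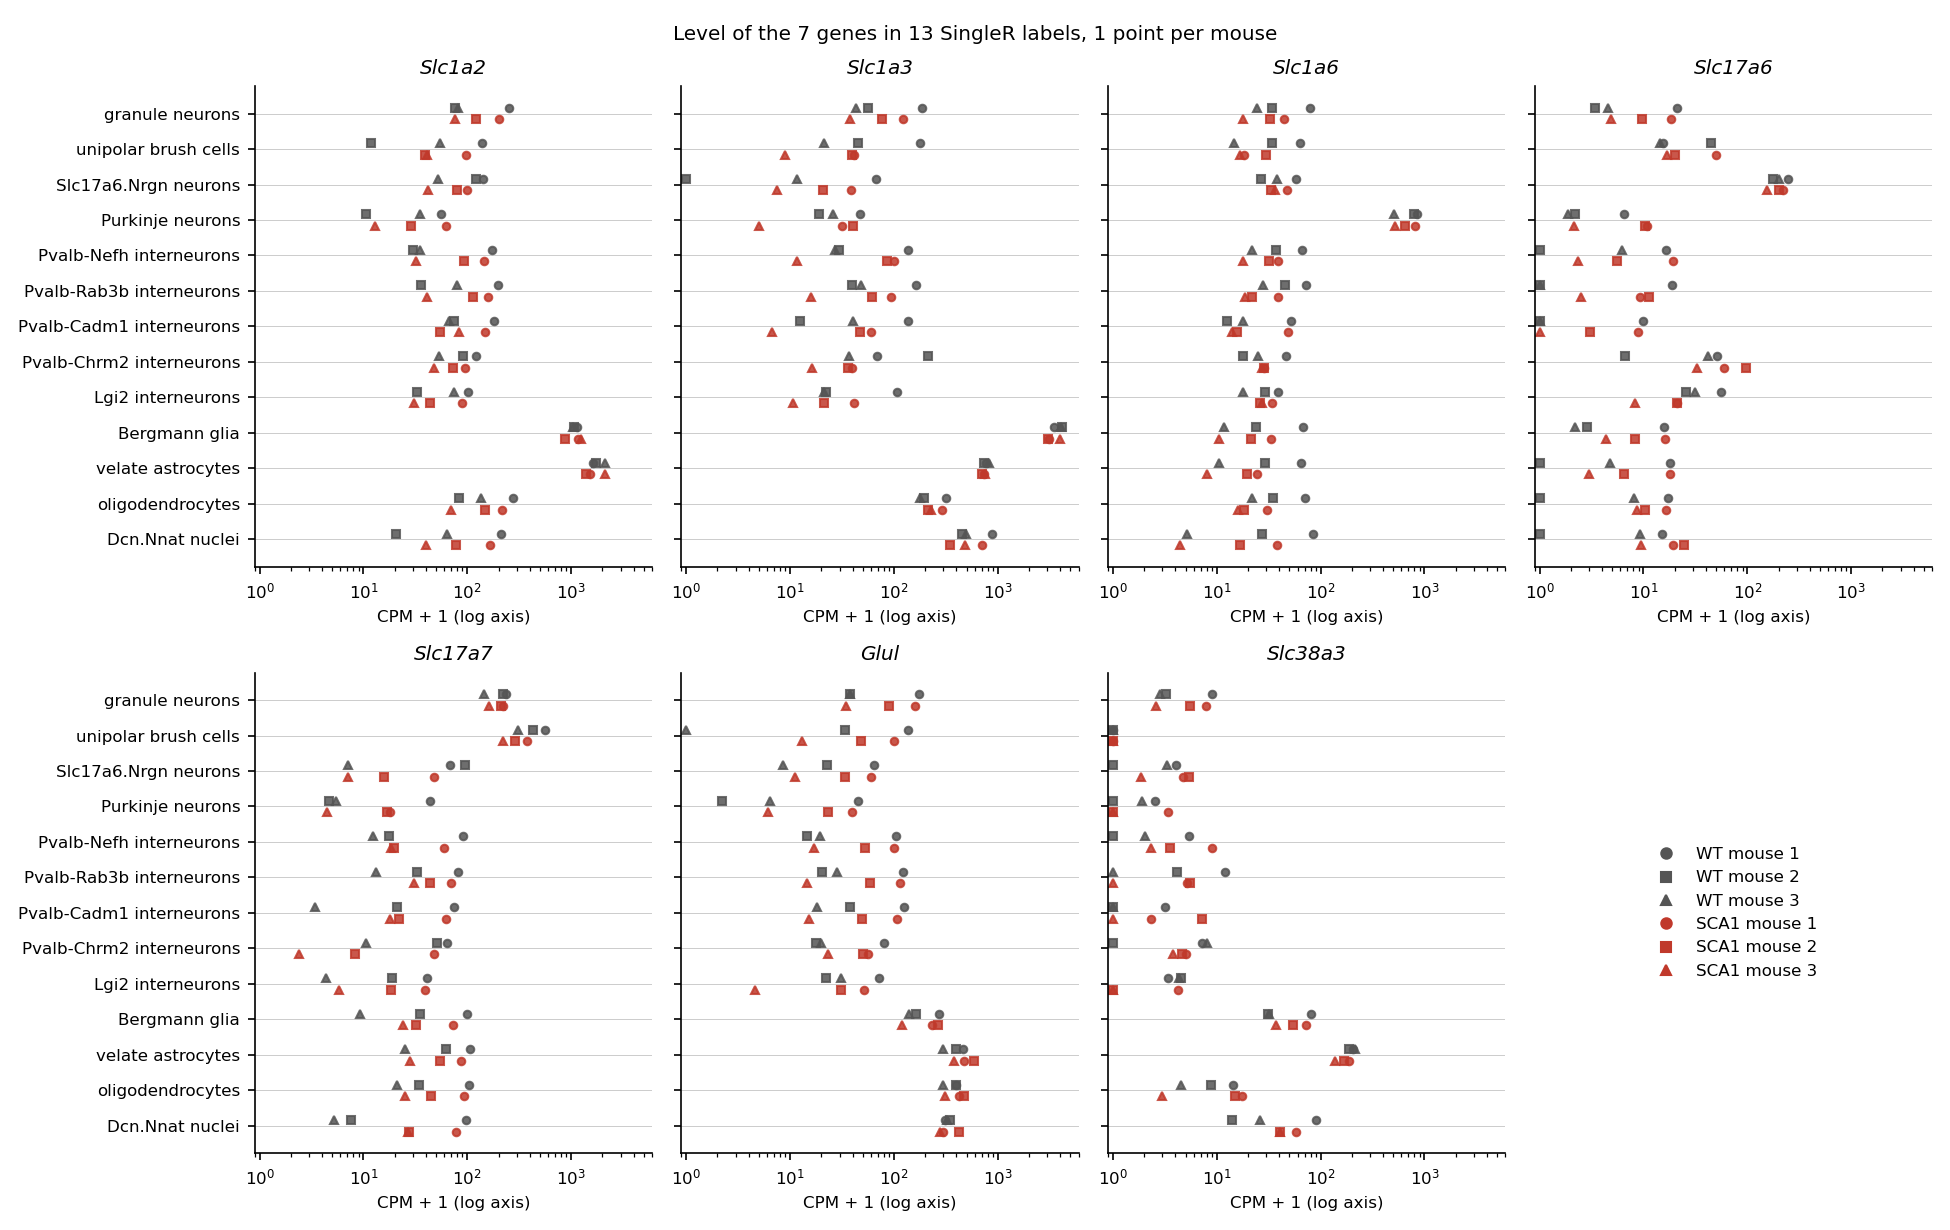
CPM + 1 (horizontal log axis) of each of the 7 genes (panels) in the 13 cell type labels (rows), with 1 point per mouse, WT in grey and SCA1 in red. The points of all 6 mice stand apart to the right in VA and BG for *Slc1a2*, in BG for *Slc1a3* (3045 to 4179 CPM), in PC for *Slc1a6* (509 to 855 CPM) and in the Slc17a6.Nrgn neurons for *Slc17a6* (155 to 246 CPM).

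*Slc1a6* was high in 1 label. In PC it was at 814, 651 and 515 CPM in the SCA1 mice and at 855, 791 and 509 CPM in the WT mice. The next labels were the Slc17a6.Nrgn neurons at 38.8 CPM and granule neurons at 37.5 CPM, and within a mouse PC had 18.7 ± 6.42 times the level of the Slc17a6.Nrgn neurons, with a range of 13.9 to 31.0. PC were 29 to 76 nuclei per mouse. Between 1.54% and 24.1% of the PC nuclei of a mouse had no *Slc1a6* UMI, and the median level per PC nucleus was 637, 447 and 427 CPM in the SCA1 mice and 644, 654 and 287 CPM in the WT mice. *Slc1a6* is known to vary between PC stripes that are marked by *Aldoc* (zebrin II). Across PC nuclei of a mouse the Spearman correlation of *Slc1a6* with *Aldoc* was positive in 6 of 6 mice. It was 0.546 in WT mouse 2 and weak in the other mice, from 0.0613 to 0.255. The nuclei of 1 library share its depth and free RNA, and the correlation is given with no test.

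RNA of the vesicular transporters was highest in different excitatory neurons. *Slc17a7* was highest in unipolar brush cells, which are excitatory interneurons of the granular layer, at 371, 286 and 219 CPM in the SCA1 mice and 557, 426 and 304 CPM in the WT mice. Granule neurons had 220, 210 and 160 CPM in the SCA1 mice and 236, 218 and 144 CPM in the WT mice. The unipolar brush cells lay above the granule neurons of the same mouse in 6 of 6 mice, by 1.81 ± 0.403 times, although the labels overlapped between mice and the unipolar brush cells of a mouse were only 11 to 26 nuclei with 30 to 128 *Slc17a7* UMIs.

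*Slc17a6* was highest in the Slc17a6.Nrgn neurons, whose label bears its name, at 221, 200 and 155 CPM in the SCA1 mice and 246, 175 and 199 CPM in the WT mice. The Pvalb-Chrm2 interneurons came next at 47.2 ± 30.4 CPM, on 1 to 113 UMIs per mouse, and their highest mouse lay below the lowest mouse of the Slc17a6.Nrgn neurons. Lgi2 interneurons averaged 26.2 CPM, unipolar brush cells 26.0 CPM and granule neurons 9.34 CPM, and the first 2 overlapped across mice. *Slc17a7* averaged 39.4 CPM in the Slc17a6.Nrgn neurons, and after thinning of each nucleus to 1000 UMIs it was detected in 3.85% of them, against 4.31% of BG and 5.34% of OL, so a level above that of glia was not shown.

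*Glul* RNA was highest in VA, OL and the Dcn.Nnat nuclei. *Glul* was at 470, 584 and 379 CPM in VA of the SCA1 mice and at 466, 399 and 297 CPM in VA of the WT mice. In OL it was at 424, 476 and 312 CPM in the SCA1 mice and at 394, 391 and 294 CPM in the WT mice. VA exceeded OL in 6 of 6 mice but by only 1.13 ± 0.0961 times, less than the spread between mice, which ran together in both labels. The Dcn.Nnat nuclei averaged 330 ± 53.4 CPM and overlapped both. BG, the astroglia with the most *Slc1a3*, averaged only 197 ± 65.9 CPM, and the VA level of a mouse was 2.30 ± 0.505 times its BG level.

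*Slc38a3*, which carries glutamine across the membrane of astroglia, was more narrowly placed than *Glul*. It was at 186, 168 and 136 CPM in VA of the SCA1 mice and at 205, 188 and 214 CPM in VA of the WT mice. BG averaged 50.2 CPM and the Dcn.Nnat nuclei 43.9 CPM, with overlap between them, and the VA level of a mouse was 4.22 ± 1.90 times its BG level. OL, high in *Glul*, had a mean of 9.47 CPM of *Slc38a3*, and granule neurons 4.15 CPM. Unipolar brush cells had 0 of 1148571 UMIs, which allows a level of up to 2.61 CPM. Among labels with too few nuclei to enter the order, choroid plexus nuclei (5 to 27 per mouse) had *Slc38a3* at 161, 127 and 34.6 CPM in the SCA1 mice and 167, 121 and 134 CPM in the WT mice, and only the first mouse of each genotype lay well inside the VA range. Microglia averaged 204 CPM of *Glul* and 219 CPM of *Slc1a3*.

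Shares of nuclei with a UMI were compared after each nucleus was thinned to 1000 UMIs. *Slc1a3* was then detected in 91.1% of BG and 50.6% of VA, and *Slc1a2* in 74.7% of VA and 63.1% of BG. *Slc1a6* was detected in 39.7% of PC, *Slc17a7* in 36.2% of unipolar brush cells and 18.2% of granule neurons, and *Slc17a6* in 15.3% of Slc17a6.Nrgn neurons. *Glul* was detected in 32.1% of VA, 32.4% of OL and 17.1% of BG, and *Slc38a3* in 17.0% of VA. In granule neurons, which are not known to use *Slc1a2*, *Slc1a3* or *Slc1a6*, the thinned shares were 12.5%, 8.4% and 4.0%, and such shares can come from free RNA.

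As granule neurons were 82.5% of nuclei, low levels in them added up. As the mean over mice, they held 48.8% of the *Slc1a2* UMIs (40.0% to 63.1% per mouse), 27.3% of *Slc1a3* (16.2% to 45.3%), 45.1% of *Slc1a6* (36.9% to 56.7%) and 57.3% of *Glul* (48.8% to 71.5%). For *Slc17a7* their share was 93.1% (88.3% to 96.0%). BG held 54.8% of *Slc1a3* (38.5% to 65.8%) and VA 42.0% of *Slc38a3* (29.2% to 52.5%), each more than granule neurons in 5 of 6 mice. PC held 42.0% of *Slc1a6* (28.6% to 53.4%), more than granule neurons in only 3 of 6 mice. Unipolar brush cells, with the highest *Slc17a7* level, held 0.887% of its UMIs. In granule neurons *Slc1a2* was at 200 and 254 CPM in the mice of the first batch and at 74.8 to 119 CPM in the others, and *Glul* was at 158 and 173 CPM against 33.5 to 88.4 CPM. In VA and BG, where *Slc1a2* is highest, its levels in the first batch lay within the range of the other mice. Whether free RNA gave the levels in granule neurons was not tested.

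**Figure D2:**
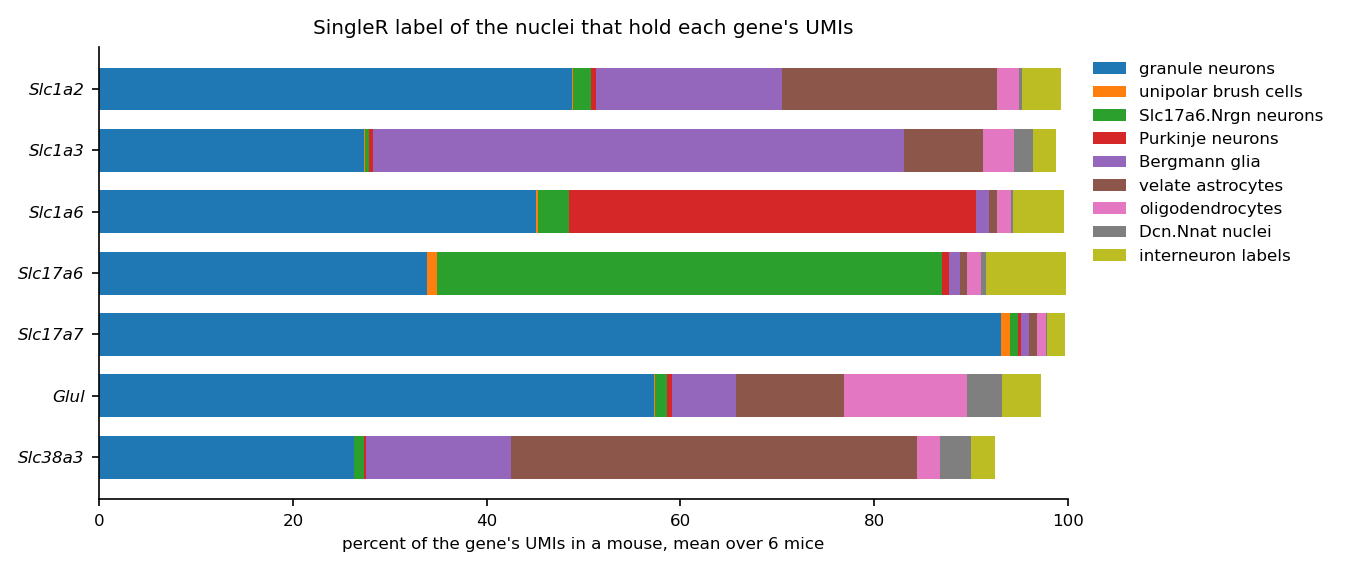
Share of each gene's UMIs in a mouse (percent, horizontal axis, as the mean over 6 mice weighted equally) that came from nuclei of each cell type label, as 1 stacked bar per gene, where the part short of the full width lies in labels left out. Granule neurons make up 93.1% of the *Slc17a7* bar, 57.3% of *Glul* and 48.8% of *Slc1a2*, while BG make up 54.8% of *Slc1a3*, and these shares varied between mice by the ranges given in the text.

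SCA1 and WT mice were then compared within each label with edgeR's quasi-likelihood test on the summed counts, with batch and genotype as terms and with 0.05 as the threshold on the p adjusted over all genes by the Benjamini-Hochberg method. Of 91 pairs of gene and label, 77 passed the filter on low counts. None of the 7 genes passed the test in any label (0 of 77 pairs, smallest adjusted p by edgeR 0.955), against 0.00547% of all genes tested in granule neurons, 0.00866% in OL and 0% in each of the other 11 labels. DESeq2 also called 0 of the 7 genes. At an unadjusted p under 0.05 there were 6 of 77 pairs, or 7.79%, against 1.99% of all genes tested, and all 6 were lower in SCA1. The pairs repeat 7 genes over labels of the same 6 mice and are not independent. Of the 6 pairs, *Slc1a6* gave 3, *Slc1a3* gave 2 and *Slc17a6* gave 1. The SCA1 and WT mice did not overlap in 2 pairs, or 2.60%, against 5.58% of all genes. The median log2 fold change of the 7 genes, over those tested, ran from −0.52 in Lgi2 interneurons to 0.18 in Pvalb-Nefh interneurons. The median of all genes tested was at most 0.0198 from 0 in each label. With 3 to 7 of the genes tested in a label, their median varies far more than that of all genes, and a shift of the set was not shown.

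RNA of the astroglial transporters did not pass the test of SCA1 against WT in BG or VA, and the 95% intervals included 0. *Slc1a3* in BG averaged 3357 ± 514 CPM in SCA1 and 3911 ± 394 CPM in WT, and SCA1 mouse 3 lay within the WT range. The log2 fold change of SCA1 against WT was −0.27 (SE 0.32, 95% interval −0.97 to 0.43, unadjusted p = 0.418 by edgeR), so these data leave room for a fold between 0.509 and 1.35. The difference was −0.17 in the first batch and −0.25 in the second. In VA the log2 fold change of *Slc1a3* was −0.10 (95% interval −0.66 to 0.46). *Slc1a2* had a log2 fold change of −0.02 in BG (SE 0.28, 95% interval −0.63 to 0.58) and of −0.15 in VA (SE 0.31, 95% interval −0.83 to 0.53), with the groups overlapping in both.

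*Slc38a3* in VA was the glial value nearest to a separation of the groups. Its SCA1 values of 186, 168 and 136 CPM all lay below the WT values of 205, 188 and 214 CPM, which 2.21% of all genes tested in VA also showed. The log2 fold change was −0.34 (SE 0.24, 95% interval −0.87 to 0.18, unadjusted p = 0.177 by edgeR), with −0.14 within the first batch and −0.41 within the second. In BG the log2 fold change of *Slc38a3* was 0.16 (SE 0.25).

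*Glul* values overlapped between the groups in VA, OL, BG and the Dcn.Nnat nuclei. The log2 fold change was 0.29 in VA (SE 0.26, 95% interval −0.28 to 0.86), 0.13 in OL (SE 0.25, 95% interval −0.42 to 0.69), 0.07 in BG (SE 0.29, 95% interval −0.56 to 0.69) and 0.02 in the Dcn.Nnat nuclei (SE 0.29). Over all 13 labels the estimate for *Glul* was above 0 in 10, with a median of 0.13, and none had an unadjusted p under 0.05.

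**Figure D3:**
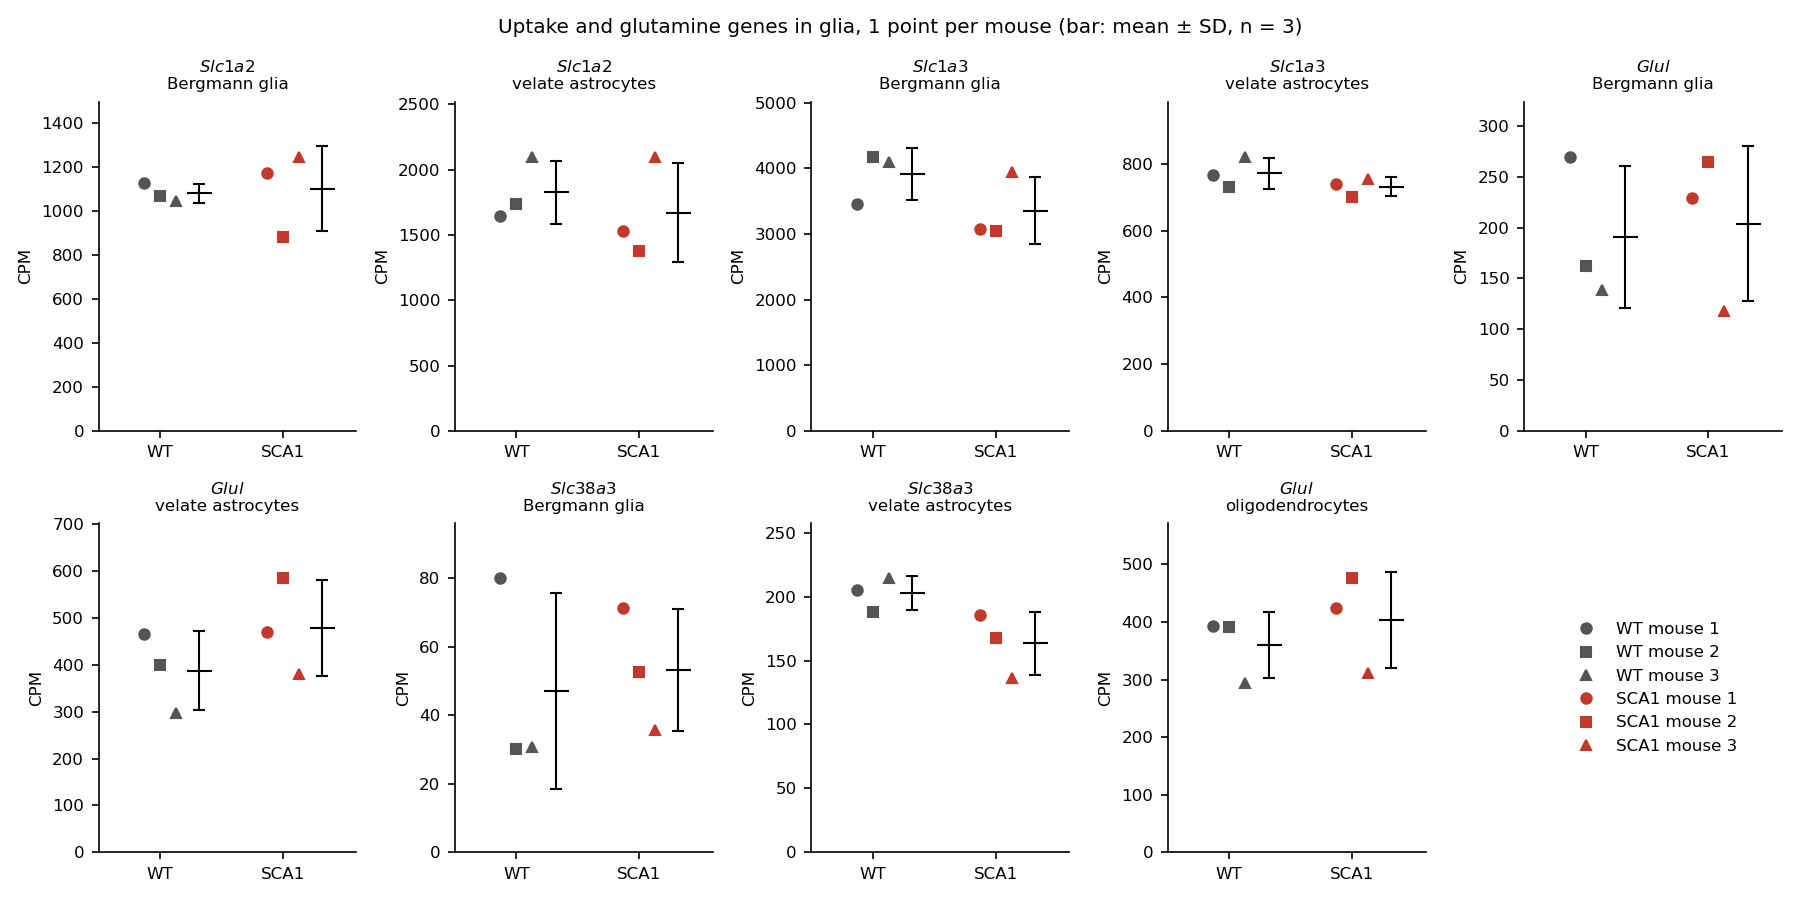
CPM of the glial genes (vertical axes, from 0) in BG, VA and OL, 1 point per mouse, with WT and SCA1 side by side and a bar at the mean ± SD of each group of 3. The groups overlap in each panel except *Slc38a3* in VA, where the 3 SCA1 mice (136 to 186 CPM) lie below the 3 WT mice (188 to 214 CPM).

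In PC, the cells that the transgene promoter targets, *Slc1a6* averaged 660 ± 150 CPM in SCA1 and 718 ± 184 CPM in WT, and the lowest value of all was that of WT mouse 3. The log2 fold change was −0.31 (SE 0.23, 95% interval −0.81 to 0.19, unadjusted p = 0.201 by edgeR). With scaling to library size alone it was −0.12, on a scale where the median of all genes in PC was 0.20, so it stayed below that median. The CPM differed by −0.07 on the log2 scale in the first batch and by −0.13 in the second. Within SCA1 PC, the nuclei with a human *ATXN1* UMI had *Slc1a6* at 1067, 620 and 417 CPM, and those without at 763, 666 and 579 CPM, which was higher with the UMI in 1 of 3 mice. The nuclei with the UMI were 10, 10 and 11, and in SCA1 mouse 2 they were deeper, with a median of 34275 against 7288 UMIs.

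Outside PC, *Slc1a6* was lower in SCA1 in 10 of 11 labels tested, with a median log2 fold change of −0.48, and these low levels gave 3 of the 6 pairs with an unadjusted p under 0.05. In OL it averaged 20.6 CPM in SCA1 and 41.7 CPM in WT (log2 fold change −0.99, SE 0.28, unadjusted p = 0.00495 by edgeR), in VA 16.2 and 33.6 CPM (−1.02, SE 0.42, unadjusted p = 0.0312) and in Pvalb-Rab3b interneurons 25.6 and 47.8 CPM (−0.87, SE 0.29, unadjusted p = 0.0111). The groups overlapped in all 3 labels. Over all nuclei outside PC, *Slc1a6* was at 41.3, 29.5 and 17.2 CPM in the SCA1 mice and 73.3, 31.9 and 22.9 CPM in the WT mice. Outside PC, 5 other PC genes (*Pcp2*, *Calb1*, *Car8*, *Ppp1r17* and *Itpr1*) were also summed. Their level was 987, 715 and 274 CPM in the SCA1 mice and 1854, 741 and 504 CPM in the WT mice. For each 100 UMIs of these genes the SCA1 mice had 4.18, 4.13 and 6.29 *Slc1a6* UMIs and the WT mice 3.95, 4.31 and 4.54, so *Slc1a6* outside PC followed the level of these genes, and its ratio to them overlapped between the groups. The part of PC RNA outside PC in these values was not tested.

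*Slc17a7* in unipolar brush cells had the lowest unadjusted p of any gene in the label where it is highest. It averaged 292 ± 76.3 CPM in SCA1 and 429 ± 126 CPM in WT, with SCA1 mouse 1 and WT mouse 3 overlapping (log2 fold change −0.54, SE 0.26, 95% interval −1.10 to 0.02, unadjusted p = 0.0565, adjusted p = 0.999 by edgeR). The difference was −0.58 in the first batch and −0.52 in the second. In SCA1 mouse 2 and in WT mouse 3, 0 of the unipolar brush cell nuclei had the label most frequent in their cluster. In granule neurons, with 2772 to 8779 nuclei per mouse, *Slc17a7* had a log2 fold change of −0.05 (SE 0.19, 95% interval −0.49 to 0.39). *Slc17a6* in the Slc17a6.Nrgn neurons had one of −0.12 (SE 0.21, 95% interval −0.59 to 0.35). In WT mouse 2, 0 of the 22 nuclei of this label had the label most frequent in their cluster.

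The other 3 pairs with an unadjusted p under 0.05 lay in interneurons with low levels. The labels of these nuclei were less settled, as 115 of 240 Lgi2, 38 of 263 Pvalb-Chrm2 and 0 of 458 Pvalb-Rab3b nuclei had the label most frequent in their cluster, and these labels held 4 of the 6 pairs. *Slc17a6* in Lgi2 interneurons was at 20.1, 20.1 and 7.21 CPM in the SCA1 mice and at 54.6, 24.8 and 30.1 CPM in the WT mice. All SCA1 mice lay below all WT mice, as did 3.09% of all genes tested in this label, on 6 to 91 UMIs per mouse (log2 fold change −1.31, SE 0.40, unadjusted p = 0.0066 by edgeR). *Slc1a3*, an astroglial gene, had log2 fold changes of −1.50 in Pvalb-Chrm2 interneurons (SE 0.54, unadjusted p = 0.0192 by edgeR), where WT mouse 2 alone stood at 213 CPM, and of −1.07 in Lgi2 interneurons (SE 0.36, unadjusted p = 0.0107), where WT mouse 1 stood at 106 CPM.

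**Figure D4:**
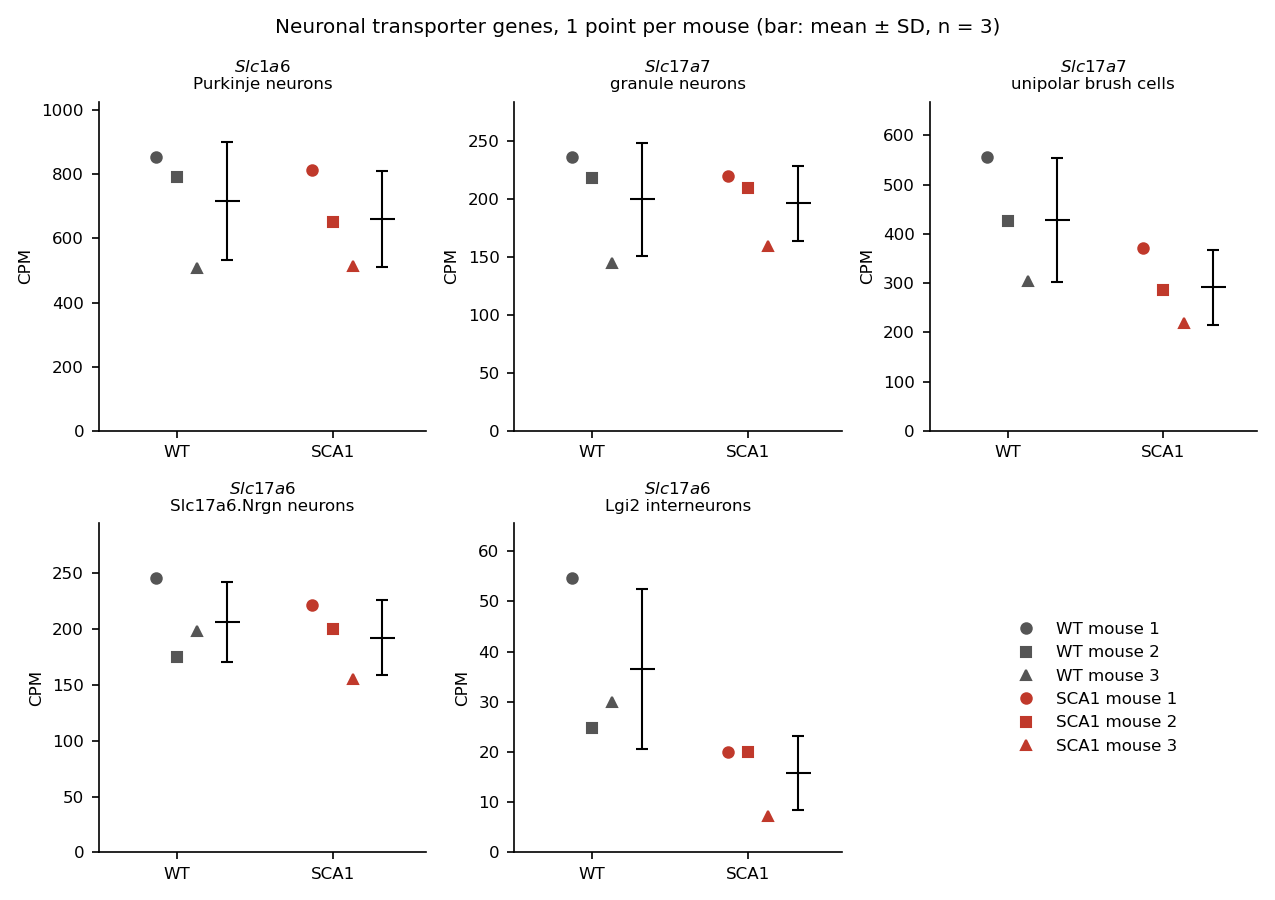
CPM of the neuronal genes (vertical axes, from 0), 1 point per mouse, with WT and SCA1 side by side and a bar at the mean ± SD of each group of 3. The groups overlap for *Slc1a6* in PC, for *Slc17a7* in granule neurons and unipolar brush cells and for *Slc17a6* in Slc17a6.Nrgn neurons, and do not for *Slc17a6* in Lgi2 interneurons, where the SCA1 mice lie at 7.21 to 20.1 CPM and the WT mice at 24.8 to 54.6 CPM.

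Whether the SCA1 effect differed between cell types was tested in 1 model over both labels with mouse as a term. PC, BG, VA and OL were each set against granule neurons, and BG against VA. The model had no term for a batch effect that differs between labels. None of the 35 tests of the 7 genes passed the threshold by edgeR, against 0% of all genes tested in each of the 5 comparisons, and none had an unadjusted p under 0.05, with a smallest p of 0.120. Between BG and VA, the effect on *Slc1a3* differed by −0.19 on the log2 scale (SE 0.15, 95% interval −0.51 to 0.14), that on *Slc1a2* by 0.11 (SE 0.15, 95% interval −0.21 to 0.44), that on *Glul* by −0.28 (SE 0.20, 95% interval −0.70 to 0.14) and that on *Slc38a3* by 0.33 (SE 0.30, 95% interval −0.32 to 0.98). Between PC and granule neurons, the effect on *Slc1a6* differed by 0.15 (SE 0.34, 95% interval −0.60 to 0.91). SEs against granule neurons ran from 0.21 (*Slc1a2* in OL) to 1.10 (*Slc38a3* in PC). For BG against VA they ran from 0.15 (*Slc1a3*) to 0.55 (*Slc17a6*). Wide intervals leave room for differences that these tests could not show.

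**Figure D5:**
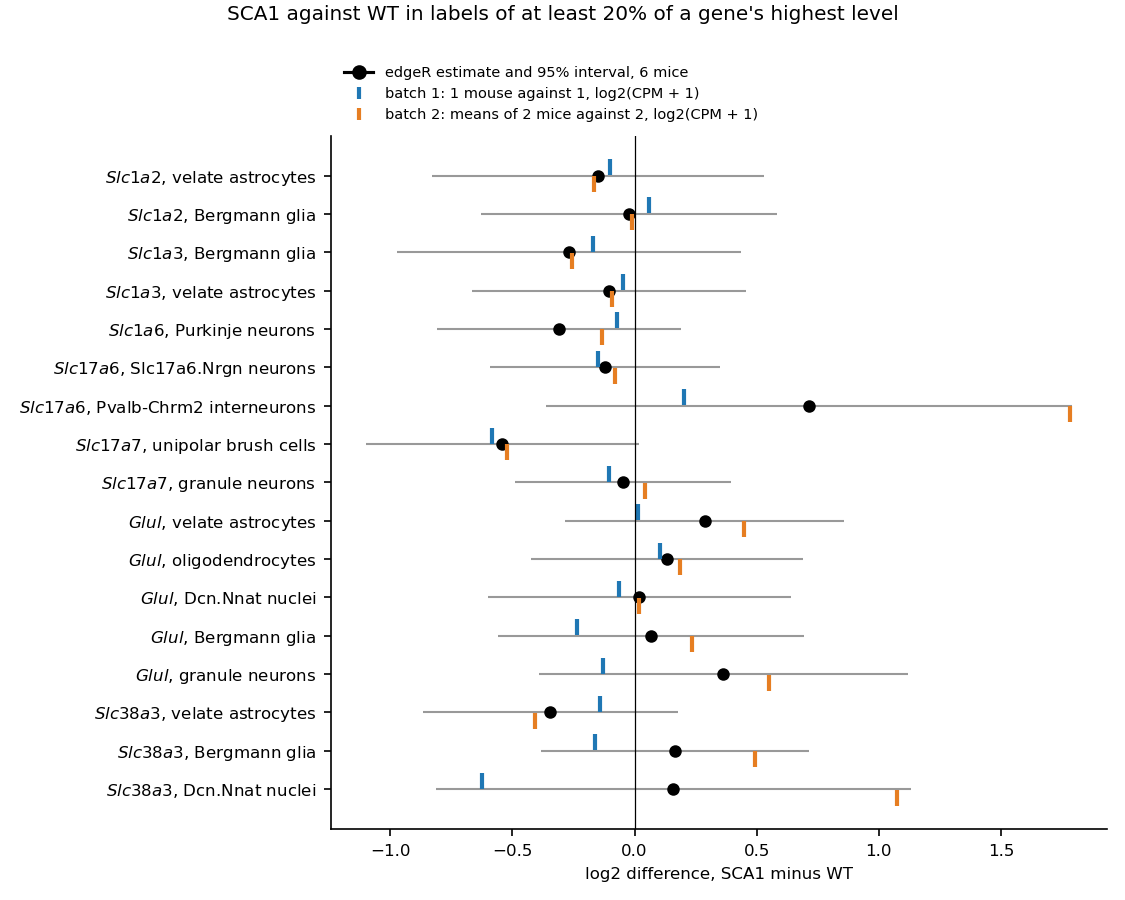
Log2 fold changes of SCA1 against WT for the 7 genes in labels with at least 20% of the gene's highest level, as edgeR estimates (black points) with 95% intervals (grey lines), and the difference of log2(CPM + 1) within batch 1 (blue marks) and batch 2 (orange marks). The intervals include 0 for each pair shown, from *Slc17a7* in unipolar brush cells at −0.54 to *Slc17a6* in Pvalb-Chrm2 interneurons at 0.71.

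The same cycle was followed through 24 further genes that carry or convert glutamate and glutamine. In level, *Glud1*, the glutamate dehydrogenase, was highest in VA (345 CPM) and BG (250 CPM), as were the mitochondrial glutamate carrier *Slc25a18*, with 145 CPM in BG and 81.1 CPM in VA, and *Pcx*, the pyruvate carboxylase, with 230 CPM in BG and 111 CPM in VA. The glutamine carrier *Slc38a1* was at 818 CPM in BG and 633 CPM in VA, so BG, with less *Slc38a3* and *Glul* than VA, had more *Slc38a1*. *Slc1a1*, the neuronal transporter EAAC1, was highest in the Slc17a6.Nrgn neurons at 98.3 CPM. The cystine and glutamate exchanger *Slc7a11* was highest in the Dcn.Nnat nuclei (1430 CPM), with VA next at 208 CPM.

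Against WT, 0 of 217 tested pairs of these genes and labels passed the test by edgeR or DESeq2, and 6 (2.76%, against 1.99% of all genes) had an unadjusted p under 0.05, 4 higher and 2 lower in SCA1. In PC, which held 2 of the 6, 6.85% of all genes did. The groups did not overlap in 13 pairs (5.99%, against 5.58% of all genes), and the median log2 fold change of the list per label ran from −0.15 to 0.07. The pairs that had both an unadjusted p under 0.05 and groups that did not overlap were 2, and they lay in PC. *Slc25a13*, a mitochondrial carrier of aspartate and glutamate, was at 22.9, 22.2 and 13.7 CPM in the SCA1 mice and 6.79, 1.21 and 10.8 CPM in the WT mice, all SCA1 mice above all WT mice as in 11.6% of all genes tested in PC (log2 fold change 1.39, SE 0.48, adjusted p = 0.517 by edgeR). *Gpt2*, the mitochondrial alanine aminotransferase, was at 32.4, 23.1 and 29.8 CPM in the SCA1 mice and 38.6, 42.2 and 45.8 CPM in the WT mice, all SCA1 mice below all WT mice as in 2.6% of all genes (log2 fold change −0.72, SE 0.26, adjusted p = 0.548 by edgeR).

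The genes whose levels over the 13 labels were most like those of the 7 genes, by Pearson's r of log2 levels and given with no test, were other genes of the same labels. For *Slc1a2* they were *Ntsr2* (r = 0.984), *Cldn10* (0.981) and *Etnppl* (0.980), and for *Slc1a3* they were *Plpp3* (0.980), *Slc12a4* (0.978) and *Kansl1l* (0.972). *Slc38a3* was most like *Tlr3* (0.989), *Aldh1a1* (0.980) and *Pbxip1* (0.978), and *Glul* most like *Trp53bp2* (0.963), *Aamdc* (0.962) and *Selenop* (0.960). *Slc1a6* was most like *Gm26713* (0.991), *Slc9a3* (0.986) and *Corin* (0.985). *Slc17a6* was most like *Gabra5* (0.988), *Gm42303* (0.985) and *Resp18* (0.951), and *Slc17a7* most like *Pkib* (0.951), *Uncx* (0.948) and *Gm2694* (0.929). Among the 7 genes themselves *Slc1a2* and *Slc38a3* had an r of 0.867, *Slc1a3* and *Slc38a3* one of 0.849, *Slc1a3* and *Glul* one of 0.842 and *Slc1a2* and *Slc1a3* one of 0.820.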

How the data were processed

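Nuclei of 6 cerebella (3 SCA1, 3 WT) had been sequenced with 10x 3′ chemistry. Per the study's methods, the authors aligned reads with Cell Ranger to mm10 plus human *ATXN1*, introns included, and removed debris with a minimum of 1000 UMIs per nucleus (3000 for the libraries of the first run). The deposited values are raw UMI counts per gene and nucleus, with the authors' SingleR label for each nucleus. The submitters' processing notes list Cell Ranger 4.0.0, 5.0.1 and 6.0.1, R 4.1.0 and Seurat 4.0.4.

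Counts were summed per mouse and label for labels with at least 10 nuclei in every mouse. Sums were tested with edgeR 4.0.16 in R 4.3.3 (filterByExpr, TMM, quasi-likelihood, batch and genotype, Benjamini-Hochberg). The procedure was also run on simulated counts with a fixed dispersion and no batch effect, which does not bear on the spread between these mice. The mice of a genotype are the replicates. DESeq2 1.42.0 and limma 3.58.1 served as alternatives, with other scalings, filters, nuclei and terms. Batch was inferred from library numbers. Floors are 3 counts of the total. Within-batch differences are of log2(CPM + 1). Likeness between genes used the mean over mice of log2(CPM + 10), over genes reaching a mean of 50 CPM in a label. No doublet caller was run. The 7 genes and the lists were chosen with earlier results of these data known. The 7 genes are named whatever their values, and the 24 others where their level is given across labels, where they passed the test, or where the groups did not overlap at an unadjusted p under 0.05.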

Additional observations from a re-analysis of the deposited data

How the results depend on the processing

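Under 239 refits of the counts of called genes per label and comparison, 238 gave 0 of the 7 genes as the report does, and 1 did not: with no filter on low counts, 1 gene was called in Pvalb-Chrm2 interneurons, *Slc1a3* (log2 fold change −1.46, adjusted p by edgeR 0.00817). With no filter *Slc25a13* in PC also passed (1.40, adjusted p by edgeR 0.0470). That setting called 0 to 223 of all genes in a label, and the share in the labels of these calls is not given here. Over the 13 labels, all genes called numbered 2 in the analysis reported, 84 with DESeq2, 10 with RLE scaling, 3 with library size only, 378 with no filter, 1 with limma-trend, 0 with no batch term and 2 to 21 without 1 mouse. The replicate number used as a block in place of batch called 205 genes, 184 of them in PC and 13 in granule neurons, and 0 of the 7 genes. Deviations of same-numbered mice from their group means correlated at 0.0407 to 0.867 over 5 labels, over 0.1 in 12 of 15 pairs (3 pairs in each label, all 3 over 0.1 in granule neurons and VA and 2 of 3 in PC, BG and OL), against 5 of 30 for other numbers. A SCA1 mouse correlated best with its own number in 13 of 15 looks at the same 3 mice. This is a hint of pairing from the data and not from the labels, and number 1 is also the first batch.

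Several estimates changed sign, and not only those near 0, as *Glul* in granule neurons was at 0.36 in the analysis reported. With the replicate block *Glul* was at −0.00057 in BG and −0.0105 in Dcn.Nnat nuclei, where DESeq2 gave −0.0018, RLE −0.0023 and limma-trend −0.0032. *Slc1a2* in BG was at 0.0289 with library size only, and *Slc38a3* in Dcn.Nnat nuclei at −0.0873 with no batch term. Leaving out 1 mouse at a time gave, for *Glul*, −0.30 to 0.27 in BG, −0.21 to 0.20 in Dcn.Nnat nuclei, −0.10 to 0.62 in granule neurons, −0.0185 to 0.26 in OL and −0.78 to 0.37 for OL against granule neurons. The range for *Slc1a2* was −0.21 to 0.15 in BG and −0.38 to 0.0411 in VA. For the difference of BG from VA it was −0.0062 to 0.20. *Slc38a3* ranged from −0.0303 to 0.43 in BG and −0.12 to 0.99 in Dcn.Nnat nuclei, *Slc17a6* in Slc17a6.Nrgn neurons from −0.23 to 0.0031, *Slc17a7* in granule neurons from −0.15 to 0.0515, and *Slc1a6* for PC against granule neurons from −0.16 to 0.48. The causes were not tested.

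Without thinning, the shares of nuclei with a UMI moved to 98.5% for *Slc1a2* in VA, 99.6% for *Slc1a3* in BG, 88.8% for *Slc1a6* in PC, 78.3% for *Slc17a6* in Slc17a6.Nrgn neurons, 92.2% for *Slc17a7* in unipolar brush cells, 81.8% for *Glul* in VA and 64.3% for *Slc38a3* in VA. The 12 levels recomputed on nuclei whose label matches their cluster, or on nuclei of at least 3000 UMIs, moved by less than 1 SD. The first of these could not be run as a test in 6 labels, where a mouse had no such nuclei. These were unipolar brush cells, Slc17a6.Nrgn neurons, Dcn.Nnat nuclei and the Pvalb-Rab3b, Pvalb-Chrm2 and Lgi2 interneurons. With 3 mice per group and few nuclei in PC and unipolar brush cells, folds inside the intervals given cannot be told apart from no difference.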
